A study of Mus musculus with 45 samples.

Results

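The subject is a set of 10 genes for the synthesis and remodelling of phospholipids, Lpcat1, Lpcat2, Lpcat3, Lpcat4, Mboat1, Mboat2, Gpam, Lpin1, Lpin2 and Chka, in the colonic epithelium of mice. The genes were chosen by name from 24918 entries of a table of RNA-seq counts, and each had 1 entry. They were chosen with earlier results of these same libraries known, so their differences between diets are given below as descriptions: it is noted which of them met the cutoffs for a call, but no p-value is given and nothing is read from it. Male C57BL/6 mice (C57BL/6J in the study's methods) were put on their diets at 6 weeks of age, and each group held 5 mice. Control mice ate a low-fat diet with 10% fat for 20 weeks. Obese mice ate a high-fat diet with 60% fat for 20 weeks. Formerly obese mice were moved to the low-fat diet after 15 weeks of high-fat feeding and stayed on it for the last 5 weeks. All 3 groups shared strain, sex, age and, per the study's methods, lard as the source of fat, and the mice carried no transgene or deletion named in the labels. The epithelium, the cell layer that lines the gut, was taken from the whole colon with an EDTA solution, so the libraries mix all epithelial cell types and all segments of the colon.

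Phospholipids are the main lipids of cell membranes. In the de novo pathway, glycerol-3-phosphate receives a fatty acyl chain (the step of Gpam) and then another to give phosphatidate, which the lipins dephosphorylate to diacylglycerol; choline phosphorylated by choline kinase (Chka) is then joined to diacylglycerol to give phosphatidylcholine. In the remodelling pathway, known as the Lands cycle, phospholipases A remove one acyl chain and lysophospholipid acyltransferases such as the Lpcat and Mboat enzymes put another in its place, which sets how saturated the membrane is. In the gut, remodelling is best known for Lpcat3, which serves the uptake and export of dietary lipid in absorptive cells.

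The 15 libraries held 15230391 to 22762095 counts, with the highest total in formerly obese replicate 3 and no other library over 18282160. Levels are given as CPM, the counts of a gene scaled to a common library size after TMM normalisation, and the genes had between 38 (Mboat2) and 10284 (Mboat1) counts in a library. All 10 genes were among the 12961 entries that passed the filter on low counts. The cutoffs for a call were those of the study, applied to edgeR's quasi-likelihood test over all entries: a fold over 1.2 in either direction, p under 0.01 and, after Benjamini-Hochberg adjustment, under 0.25. Summed markers of the epithelium, such as Epcam, Cdh1 and Krt8, were between 12794 and 15253 CPM in every library. Summed immune markers were between 21.4 and 52.0 CPM, and smooth muscle markers did not exceed 2.39 CPM. Of 5 adipocyte markers, Plin1 and Lep had 0 counts in all 15 libraries, Adipoq and Fabp4 did not exceed 0.113 and 0.374 CPM, and only Cidec was high enough to test. Sequences are printed below for the parts of the genes that the data bear on, namely the introns in which the study's bisulfite sequencing listed a differentially methylated region (DMR) between obese and control mice, and the promoters of Gpam and Lpcat1, the genes whose values lay below those of all control mice in both other groups. They were read from RefSeq GRCm38.p6, the sequence of mm10, and run 5′ to 3′. DMRs are on the plus strand with 20 flanking bases on either side, and capitals mark the CpGs inside the DMR. Promoters run in the direction of transcription from 250 bases before to 50 bases after the gene start, and capitals mark all CpGs.

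Per kilobase of the longest curated RefSeq transcript, which allows levels to be compared between genes, the order of the genes was nearly the same on each diet. Mboat1 led with 158 ± 13.9 CPM per kb in control mice (SD, n = 5), followed by Lpcat3 with 55.2 ± 4.59 and Chka with 14.0 ± 0.61. The values of these 3 genes did not overlap with those of the next gene in control and obese mice. In formerly obese mice the values of Chka and Lpin2 overlapped. Lpin2, Lpcat2 and Gpam followed in control mice with 10.0 ± 1.73, 9.43 ± 0.44 and 9.19 ± 0.84 CPM per kb, and each of these overlapped with its neighbour. Lpcat4, Lpcat1, Lpin1 and Mboat2 were the lowest, with 6.16 ± 1.83, 3.96 ± 0.24, 2.47 ± 0.89 and 1.57 ± 0.53 CPM per kb, again with overlaps between neighbours. In obese and formerly obese mice, Lpcat4 stood above Lpcat2 and Gpam, with 9.29 ± 2.60 and 9.37 ± 2.30 CPM per kb, but its values overlapped with those of Lpcat2.

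**Figure D1:**
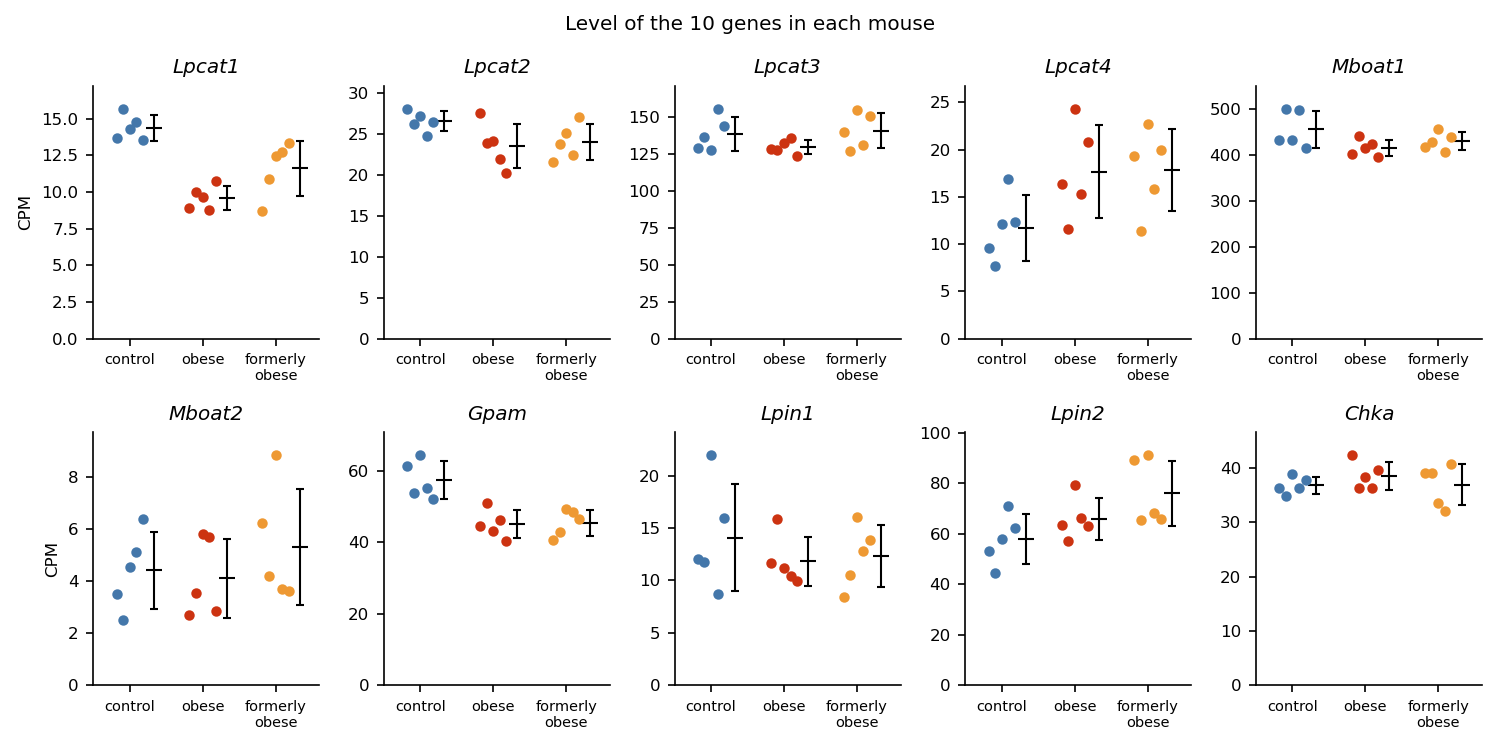
CPM of each of the 10 genes (y axis, from 0, own scale per gene) in each mouse, with 5 mice per diet (points) and the mean ± SD (black, n = 5). Only for Lpcat1 and Gpam did all control mice lie above all obese and all formerly obese mice, with control mice at 13.5 or more and 52.0 or more CPM.

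Gpam (Entrez gene 14732, chr19:55069734-55099447 of mm10, minus strand) encodes the mitochondrial glycerol-3-phosphate acyltransferase that starts the de novo pathway. The control mice had 61.5, 53.8, 64.3, 55.3 and 52.0 CPM. The obese mice had 44.5, 50.9, 43.2, 46.2 and 40.4 CPM, and the formerly obese mice 40.6, 43.0, 49.2, 48.3 and 46.4 CPM. All 10 mice with a history of the high-fat diet were thus below all 5 control mice. On the log2 scale of the fit the difference from control was -0.35 ± 0.07 (SE) in obese and -0.33 ± 0.07 in formerly obese mice. Between the latter 2 groups it was 0.02 ± 0.07, and leaving out single mice turned its sign. Both comparisons with control share the 5 control libraries, so these 2 values are not independent. Gpam had 2 promoter windows. The one next to the gene start of the count table held 30 CpGs and is printed, and the other, chr19:55127189-55127488, held 9. A DMR in an intron, 6.39 kb from the gene start, gained methylation in obese mice.
Gpam promoter, chr19:55099428-55099727, minus strand: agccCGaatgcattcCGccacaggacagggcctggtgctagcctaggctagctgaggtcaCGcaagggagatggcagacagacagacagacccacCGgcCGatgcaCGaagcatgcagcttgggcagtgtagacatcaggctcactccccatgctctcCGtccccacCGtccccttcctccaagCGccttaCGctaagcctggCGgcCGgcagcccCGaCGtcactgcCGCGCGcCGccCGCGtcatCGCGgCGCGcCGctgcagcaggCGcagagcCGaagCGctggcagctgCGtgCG
Gpam intronic DMR, chr19:55093021-55093090: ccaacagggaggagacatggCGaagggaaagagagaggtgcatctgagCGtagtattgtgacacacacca

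Lpin1 (chr12:16535669-16589770, minus strand) and Lpin2 (chr17:71183978-71249818, plus strand) encode phosphatidate phosphatases, which also act as regulators of transcription. Lpin2 was at 53.1, 44.5, 57.9, 71.1 and 62.3 CPM in control mice, at 63.5, 57.3, 79.3, 66.1 and 63.2 CPM in obese mice and at 89.2, 65.6, 91.1, 68.2 and 66.0 CPM in formerly obese mice. Formerly obese replicates 1 and 3 were the highest of all 15 mice, and the other 3 mice of that group lay within the range of the control mice. The log2 difference from control was 0.40 ± 0.12 in formerly obese and 0.19 ± 0.12 in obese mice. Without formerly obese replicate 1 or 3 the first of these was 0.34 or 0.32 and no longer met the cutoffs for a call, which also held without control replicate 1, 2 or 3. Lpin1 ranged from 8.74 to 21.9 CPM in control mice, from 9.97 to 15.8 in obese mice and from 8.39 to 16.1 in formerly obese mice. The groups overlapped throughout, and the log2 differences from control were -0.26 ± 0.21 and -0.19 ± 0.21. Without control replicate 3, the mouse with the highest Lpin1, they were -0.041 and 0.026.

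Chka (chr19:3851773-3894369, plus strand) encodes choline kinase alpha, which commits choline to phosphatidylcholine synthesis. Control mice had 36.8 ± 1.61 CPM (SD, n = 5), obese mice 38.6 ± 2.54 CPM and formerly obese mice 36.9 ± 3.77 CPM. No log2 difference between groups exceeded 0.07 in size, with a standard error of 0.07, and the sign of that between formerly obese and control mice depended on the scaling.

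Lpcat1 (Entrez gene 210992, chr13:73467383-73514538, plus strand) encodes a lysophosphatidylcholine acyltransferase that favours saturated chains and is known from the surfactant of the lung. Control mice had 13.6, 15.7, 14.3, 14.8 and 13.5 CPM, and obese mice 8.93, 10.0, 9.62, 8.73 and 10.7 CPM. The groups did not overlap, and the log2 difference was -0.58 ± 0.10. Formerly obese mice had 8.68, 10.8, 12.4, 12.7 and 13.3 CPM. All 5 were below the lowest control mouse, while 1 of them lay just below the lowest obese mouse and the other 4 were above the highest obese mouse. The log2 difference of formerly obese mice was -0.31 ± 0.10 from control and 0.27 ± 0.10 from obese mice. Without formerly obese replicate 1, the mouse with the lowest value, these were -0.22 and 0.36; the former no longer met the cutoffs for a call, and the latter did. The former was also lost without control replicate 2, 3 or 4 or formerly obese replicate 2, with values from -0.31 to -0.27. The promoter of Lpcat1 held 25 CpGs, its RefSeq start lies 152 bases before the start in the count table, and no DMR lay in the gene.
Lpcat1 promoter, chr13:73466981-73467280, plus strand: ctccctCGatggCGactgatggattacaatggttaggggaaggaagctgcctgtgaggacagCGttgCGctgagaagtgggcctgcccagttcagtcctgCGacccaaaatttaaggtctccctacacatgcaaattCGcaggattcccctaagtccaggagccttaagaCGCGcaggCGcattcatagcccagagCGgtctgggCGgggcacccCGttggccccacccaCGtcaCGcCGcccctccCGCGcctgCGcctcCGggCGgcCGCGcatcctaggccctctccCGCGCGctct

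Lpcat2, Lpcat3 and Lpcat4 add polyunsaturated or monounsaturated chains, and Lpcat2 also makes platelet-activating factor. Lpcat4 (Entrez gene 99010, chr2:112239841-112247111, plus strand) had higher means in both groups in which Lpcat1 was lower. Control mice had 9.59, 7.66, 12.1, 16.9 and 12.4 CPM, obese mice 16.4, 11.6, 24.3, 15.3 and 20.8 CPM, and formerly obese mice 19.3, 11.3, 22.7, 15.8 and 20.0 CPM. Control replicate 4 lay above several obese and formerly obese mice; of the latter 2 groups, only replicate 2 of each lay below the next highest control mouse. The log2 differences from control were 0.59 ± 0.22 and 0.61 ± 0.22, with SEs above the 0.10 of Lpcat1. They did not meet the cutoffs for a call with edgeR, though they did with DESeq2. With edgeR both met these cutoffs without control replicate 4, with 0.76 and 0.78. Each also met them without replicate 2 of the obese (0.71) or formerly obese mice (0.73).

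Lpcat2 (chr8:92855350-92919279, plus strand) averaged 26.6 ± 1.23 CPM on the control diet (SD, n = 5), 23.6 ± 2.72 CPM in obese mice and 24.0 ± 2.21 CPM in formerly obese mice, with log2 differences from control of -0.17 ± 0.08 and -0.14 ± 0.08. Lpcat3 (chr6:124663104-124704716, plus strand) was at 138 ± 11.5, 129 ± 4.75 and 141 ± 11.9 CPM. Its log2 differences from control were -0.10 ± 0.06 and 0.02 ± 0.06. The values of the groups overlapped for both genes. Each had a DMR of 2 CpGs in an intron, 22.5 kb from the gene start in Lpcat2, where methylation was gained in obese mice, and 15.9 kb in Lpcat3, where it was lost.
Lpcat2 intronic DMR, chr8:92877853-92877911: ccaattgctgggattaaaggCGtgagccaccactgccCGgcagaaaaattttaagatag
Lpcat3 intronic DMR, chr6:124678917-124678999: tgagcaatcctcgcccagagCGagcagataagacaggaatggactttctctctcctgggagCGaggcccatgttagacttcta

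Mboat1 and Mboat2 encode acyltransferases that favour oleoyl chains and, among other substrates, lysophosphatidylethanolamine. Mboat1 (chr13:30136490-30246694, plus strand) averaged 456 ± 40.0 CPM on the control diet, 416 ± 17.8 CPM in obese mice and 430 ± 19.6 CPM in formerly obese mice, with log2 differences from control of -0.13 ± 0.06 and -0.08 ± 0.06. Mboat2 (chr12:24831599-24960299, plus strand) was the least abundant, and ranged from 2.49 to 6.37 CPM on the control diet, from 2.70 to 5.78 CPM in obese mice and from 3.62 to 8.81 CPM in formerly obese mice. Its log2 difference between formerly obese and obese mice was 0.38 ± 0.29, and 0.10 without formerly obese replicate 3, the mouse with the highest value. The groups overlapped for both genes. Mboat1 held 2 intronic DMRs that gained methylation in obese mice, of which the one 4.40 kb from the gene start is shown and the other, chr13:30207639-30207986, is 348 bases long and is not. Mboat2 held 1 that lost it, 106 kb from the gene start.
Mboat1 intronic DMR, chr13:30140865-30140910: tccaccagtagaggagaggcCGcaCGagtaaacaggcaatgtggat
Mboat2 intronic DMR, chr12:24937762-24937910: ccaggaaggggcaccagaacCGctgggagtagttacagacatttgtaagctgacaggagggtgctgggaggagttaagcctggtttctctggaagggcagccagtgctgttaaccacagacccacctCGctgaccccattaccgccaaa

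**Figure D2:**
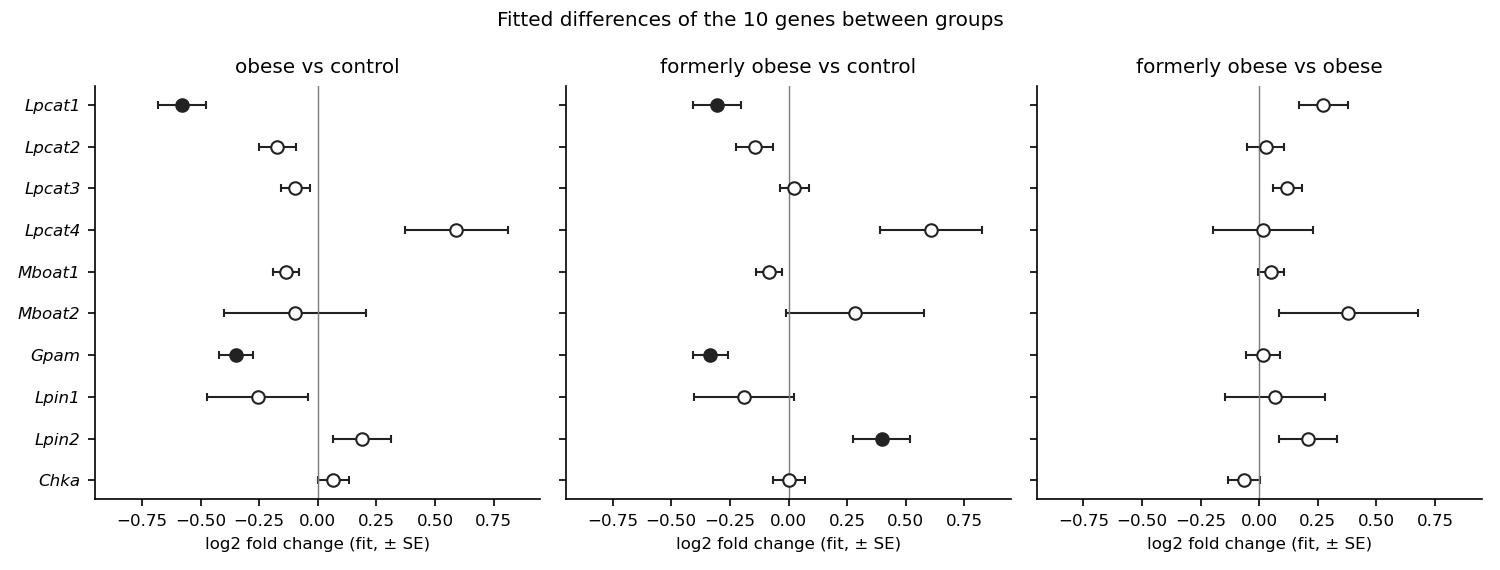
Fitted log2 fold change (x axis, points, with the SE of the fit as bars) of the 10 genes (rows) in the 3 comparisons, with filled points for genes that met the cutoffs for a call. Lpcat1 and Gpam lie left of 0 against control mice in both groups, and Lpcat4 lies right of 0 in both with wide bars.

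Between obese and control mice 2 of the 10 genes met these cutoffs, Lpcat1 and Gpam, both lower, beside 1.58% of all genes tested. The groups did not overlap for the same 2 genes, beside 2.47% of all genes. Between formerly obese and control mice 3 of 10 met them, Lpcat1 and Gpam lower and Lpin2 higher, beside 3.72% of all genes, and 2 of 10 did not overlap, beside 3.62%. Between formerly obese and obese mice 0 of 10 met them, beside 2.65%, and 0 of 10 did not overlap, beside 3.38%. In that comparison DESeq2, the tool used in the study, also called 0. In both comparisons with control mice Lpcat4 met the cutoffs with DESeq2 but not with edgeR. At an unadjusted p under 0.05 in edgeR the counts were 5, 4 and 1 of the 10 genes in the 3 comparisons, beside 10.9%, 16.7% and 13.4% of all genes. As the genes were named with these comparisons known, nothing is read from their counts. The median log2 difference of the 10 genes was -0.12, -0.04 and 0.06 in the 3 comparisons, beside medians of all genes of 0.00 in each. Between obese and control mice 7 of the 10 genes were lower, between formerly obese and control mice 5 were, and between formerly obese and obese mice 1 was, beside 49.9%, 50.2% and 49.0% of all genes. In the last comparison the signs of Gpam, Lpcat2, Lpcat4 and Lpin1 turned when single mice were left out.

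The level of Lpcat4 relative to Lpcat1 in the same library does not depend on scaling between libraries. The log2 ratio of their counts was -0.51, -1.03, -0.24, 0.20 and -0.13 in control mice. It was 0.87, 0.21, 1.34, 0.81 and 0.95 in obese mice and 1.15, 0.07, 0.87, 0.32 and 0.58 in formerly obese mice. Control and obese mice did not overlap, with control replicate 4 and obese replicate 2 next to each other, while formerly obese replicate 2 lay below control replicate 4. The group means were -0.34 ± 0.46, 0.84 ± 0.40 and 0.60 ± 0.43 (SD, n = 5). The ratio was formed from genes already known to differ, so these are values and not a test.

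Over the 15 libraries, Lpcat4 and Lpin2 went together (Pearson r = 0.84 of log2 CPM, and 0.82 after the group means were removed), as did Mboat2 and Lpin2 (0.75 and 0.83). Lpcat1 and Gpam went together with r = 0.73, which was 0.30 after the group means were removed. These are descriptions over 15 libraries of 3 diets that share library preparation and scaling. The 3 genes of all tested whose log2 CPM followed Lpcat1 most closely were Abcc4 (r = 0.86), Tmem55b (0.85) and Emp2 (0.85). For Lpcat4 they were Suox (0.94), Aplp1 (0.93) and Clca6 (0.92), and for Gpam they were Tmeff1 (0.90), Pvrl4 (0.89) and Tmem132c (0.88). These are the top 3 of 12960 genes for each, and thus extremes of many values.

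Summed markers of colonocytes, the absorptive cells at the top of the colonic crypt, moved with some of the genes. The 7 markers, among them Car1, Aqp8 and Slc26a3, summed to 9262 to 15783 CPM in control mice, 9957 to 15237 in obese mice and 13014 to 18803 in formerly obese mice. All 7 were higher in formerly obese than in control mice, and 3 met the cutoffs for a call, whereas 3 of 7 were higher in obese mice and 0 were called. All 7 were also higher in formerly obese than in obese mice, with 3 called. Of the 7, Car1 had the highest mean (5288 CPM) and the widest range (2054 to 9702 CPM), so the sum varied mainly with it. Formerly obese replicate 3 had both the highest Car1 and the highest Lpin2. Among control mice, Car1, Car4, Krt20, Guca2a and Ceacam1 were highest in replicate 4 (7387, 675, 1212, 1832 and 3091 CPM). That mouse also had the highest Lpin2 and Lpcat4 of its group. Aqp8 and Slc26a3 were instead highest among control mice in replicate 2 (359 and 1311 CPM), the control mouse with the lowest Lpin2 and Lpcat4. Correlations with single markers were not computed. Lpin2 followed the summed markers with r = 0.89 (Spearman's rho = 0.93) over the 15 libraries, 0.86 after the group means were removed and 0.82 without the 2 libraries farthest from the median. Lpcat4 followed them with r = 0.77 (rho = 0.76), 0.87 and 0.72, and Lpcat3 with r = 0.66 (rho = 0.53), 0.77 and 0.55. Mboat2 had r = 0.66 (rho = 0.68), which was 0.69 after the group means were removed and 0.45 without these 2 libraries. Lpcat1 (r = -0.15), Mboat1 (0.05), Chka (-0.09), Lpin1 (-0.25), Lpcat2 (-0.29) and Gpam (-0.42) had weak or negative values. Control replicate 4, which had the highest Lpcat4 and Lpin2 of the control mice, also had the highest sum of that group, and formerly obese replicates 1 and 3, with the highest Lpin2, had the highest sums of all. The 7 enterocyte markers of the small intestine summed to 642 to 935, 683 to 891 and 784 to 1135 CPM in the 3 groups. Of the 5 tested, all 5 were higher in formerly obese than in control mice and 2 were called. In obese mice 4 of the 5 were higher than in control mice and 0 were called. The sum of the 7 followed Lpin2 (r = 0.84), Lpcat4 (0.76) and Lpcat3 (0.71) likewise. Lpcat3 also had r = -0.77 with the summed immune markers, and -0.83 after the group means were removed. Cidec, the tested adipocyte marker and also a lipid droplet gene, was called higher in formerly obese than in control mice and ranged from 2.82 to 12.1 CPM over all mice. The summed adipocyte markers, which are nearly all Cidec, followed Lpin2 with r = 0.88 and Lpcat4 with r = 0.79. Of 3 tuft cell markers, 2 were called higher in formerly obese than in control mice. The sum of the 3 had r = 0.16 with Lpin2, 0.11 with Lpcat4 and -0.41 with Lpcat3, the last being -0.82 after the group means were removed. The 4 fibroblast markers tested had median log2 differences from control of 0.66 in obese and 1.09 in formerly obese mice, with 0 called. All 6 fibroblast markers, tested or not, summed to between 2.34 and 30.7 CPM over all mice. This sum had r = 0.49 with Lpin2 and 0.56 with Lpcat4. In these bulk samples fewer cells of a type and less RNA per cell cannot be told apart. The part of these markers in the levels of Lpin2 and Lpcat4 was not tested.

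**Figure D3:**
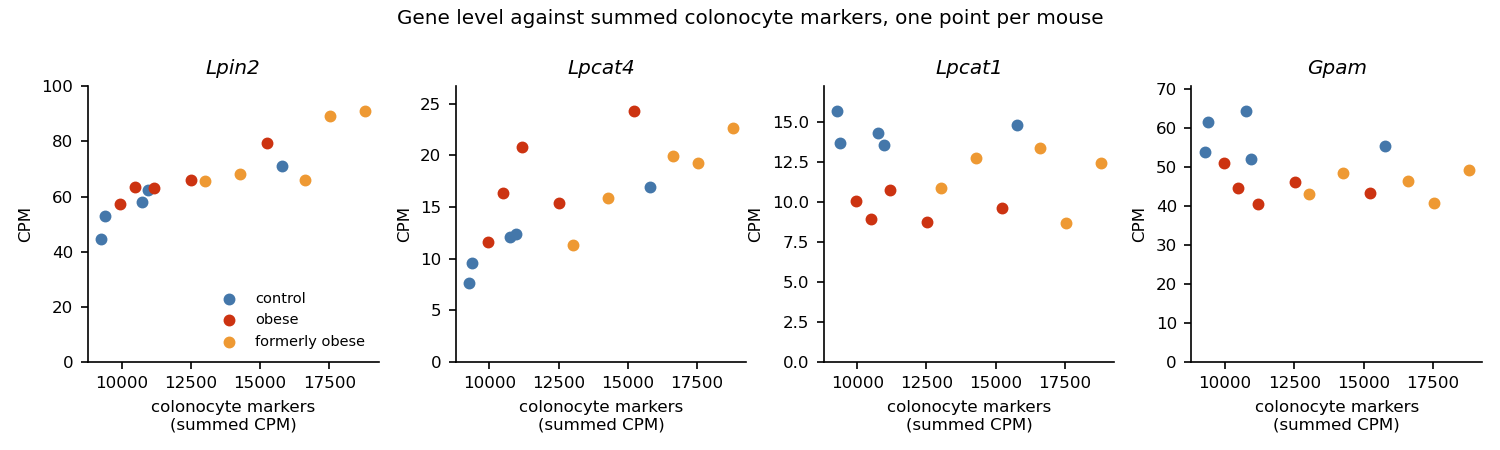
CPM of Lpin2, Lpcat4, Lpcat1 and Gpam (y axes, from 0) against the summed CPM of 7 colonocyte markers (x axis), one point per mouse and one colour per diet. Mice with a higher sum had more Lpin2 (r = 0.89) and Lpcat4 (r = 0.77), while Lpcat1 (r = -0.15) and Gpam (r = -0.42) show no such trend.

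The other genes of the pathway were taken from a list of 52, of which 50 were tested. This list was also drawn up with earlier results of these data known, so its calls and adjusted p-values are descriptions. Gpat2 and Pcyt1b had at most 1 and 12 counts in a library. Between obese and control mice 1 of the 50 was called, Pla2g2a, beside 1.58% of all genes, and the median log2 difference of the list was 0.02. Between formerly obese and control mice 2 were called higher and 0 lower, beside 3.72% of all genes in either direction (median 0.01), and between formerly obese and obese mice 0 were called higher and 1 lower, beside 2.65% (median 0.03). At an unadjusted p under 0.05 the counts were 12, 12 and 11 of 50, beside 10.9%, 16.7% and 13.4% of all genes.

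Pla2g2a encodes a secreted phospholipase A2, known as a modifier of intestinal tumours in the mouse and known to be disrupted by a natural frameshift in C57BL/6. It was higher in obese mice, with 2.63 ± 0.82 against 1.62 ± 0.20 CPM in control mice (log2 difference 0.70 ± 0.21, edgeR adjusted p = 0.199). In formerly obese mice it was at 2.51 ± 0.41 CPM (0.64 ± 0.20, edgeR adjusted p = 0.115). The control mice had at most 1.93 CPM and the formerly obese mice at least 2.16, whereas the obese mice began at 1.81 and overlapped with the control mice. The gene had 22 to 59 counts in a library. The call in obese mice was lost without control replicate 1 or 2 or obese replicate 1, 3 or 5, with log2 differences of 0.67, 0.66, 0.54, 0.73 and 0.61. That in formerly obese mice was lost without any one of control replicates 1 to 4 or formerly obese replicate 3 or 5, with values from 0.54 to 0.65.

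Agpat9, the glycerol-3-phosphate acyltransferase of the endoplasmic reticulum also named Gpat3, had 17.8, 14.1, 15.1, 19.7 and 20.2 CPM in control mice. It had 19.6, 19.3, 21.4, 21.1 and 21.3 CPM in obese mice and 25.7, 21.9, 25.1, 21.5 and 23.9 CPM in formerly obese mice. All formerly obese mice were above all mice of both other groups, and the log2 difference from control was 0.44 ± 0.09 (edgeR adjusted p = 0.0253). Agpat9 was thus higher in formerly obese than in control mice, whereas Gpam, which carries out the same reaction in mitochondria, was at -0.33 ± 0.07. Agpat6 (Gpat4), another gene of this step, named after its values were seen, was at 99.4 ± 7.55, 98.6 ± 2.54 and 105 ± 4.87 CPM and was not called.

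Ppap2a, also named Plpp1, encodes a lipid phosphatase of the plasma membrane that acts on phosphatidate. Its level was lower in formerly obese than in obese mice by 0.27 on the log2 scale (SE 0.08, edgeR adjusted p = 0.136). It was at 24.4 ± 2.64 CPM in obese and 20.2 ± 0.28 CPM in formerly obese mice, which did not overlap, and at 21.6 ± 2.27 CPM in control mice. The call was lost without obese replicate 3, the mouse with the highest value (-0.20), and without formerly obese replicate 5 (-0.27). The following 2 phospholipase genes are named after their values were seen. Lypla2 was lower in formerly obese than in obese mice by a fold under 1.2 (log2 difference -0.25 ± 0.05, edgeR adjusted p = 0.0440), and Pld1 was higher in formerly obese than in control mice (0.16 ± 0.04, adjusted p = 0.0409).

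In the other roles no gene was called in any of the 3 comparisons. Slc44a1 and Pgs1 in obese mice and Chpt1 in formerly obese mice, named after their values were seen, missed a call against control only by the fold. Their log2 differences were -0.21 ± 0.05, 0.26 ± 0.07 and -0.18 ± 0.06 (edgeR adjusted p = 0.138, 0.195 and 0.132). The most counted of the 5 AGPAT acyltransferase genes, which add the second chain, was Agpat1 with 164 ± 13.1, 162 ± 5.76 and 156 ± 10.6 CPM. In the choline branch it was the transporter gene Slc44a4 with 752 ± 24.8, 781 ± 32.2 and 806 ± 39.5 CPM. In the ethanolamine and serine branch it was the phosphatidylserine synthase gene Ptdss1 with 150 ± 7.11, 154 ± 2.25 and 157 ± 5.77 CPM. In the CDP-diacylglycerol branch, which leads to phosphatidylinositol and cardiolipin, it was Cds1 with 342 ± 21.1, 338 ± 15.3 and 345 ± 13.1 CPM. Of the 2 other lysophospholipid acyltransferase genes it was Lpgat1 with 83.1 ± 6.67, 84.9 ± 6.53 and 88.8 ± 7.76 CPM.

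**Figure D4:**
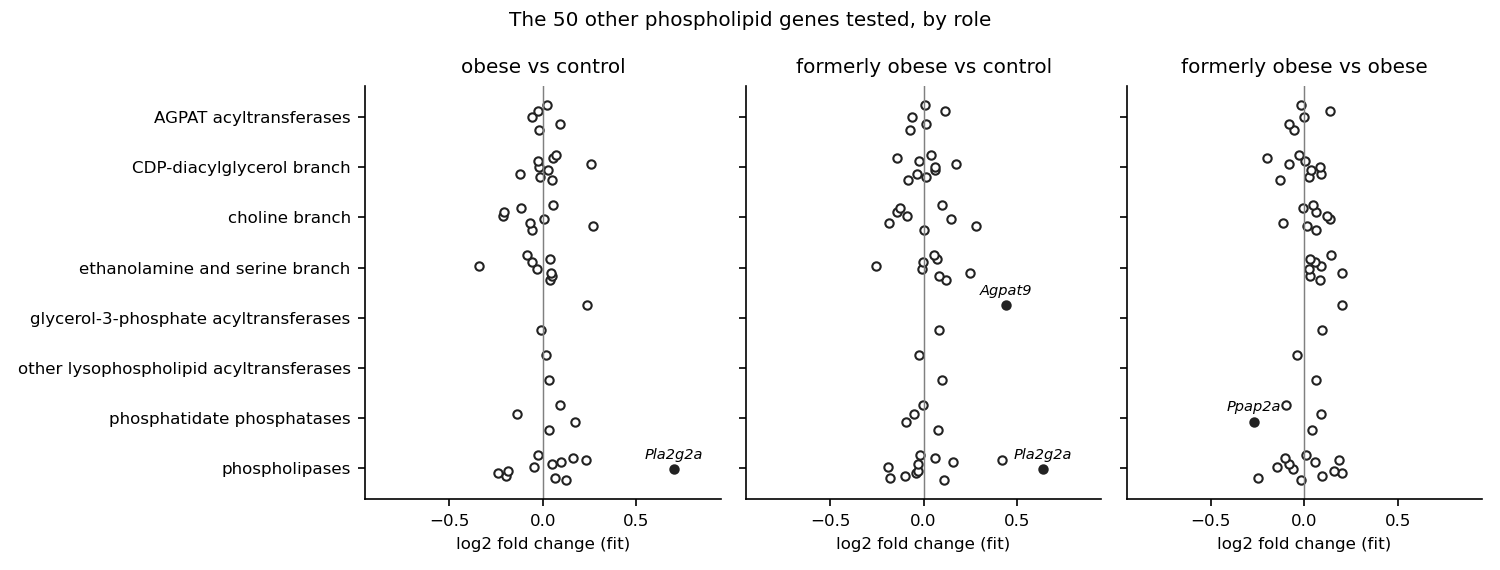
Fitted log2 fold change (x axis) of the 50 other phospholipid genes tested, by role (rows), in the 3 comparisons, one point per gene, filled and named where called. The called genes are Pla2g2a in both comparisons with control, Agpat9 in formerly obese against control mice and Ppap2a in formerly obese against obese mice.

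The DMRs, from whole-genome bisulfite sequencing of obese and control mice, were listed with a direction but no value per mouse. The study's methods required a minimum absolute difference or fold change in methylation for a DMR. The exact size and the spread of each difference are not known here. Of the 10 genes, 5 had at least 1 DMR in the gene body or within 10 kb, which 20.6% of the 12961 genes tested had. The genes spanned a median of 50629 bases against 21304 for all tested genes. Among genes that span over 25000 bases, 27.6% had such a DMR, and 5 of 9 members of that size did. All 6 of these DMRs lay in introns. Mboat1 had 2 and Lpcat2 and Gpam 1 each that gained methylation in obese mice, and Lpcat3 and Mboat2 had 1 each that lost it. Within 100 kb, 9 of the 10 genes had a DMR, as did 62.4% of all genes; Chka had none.

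**Figure D5:**
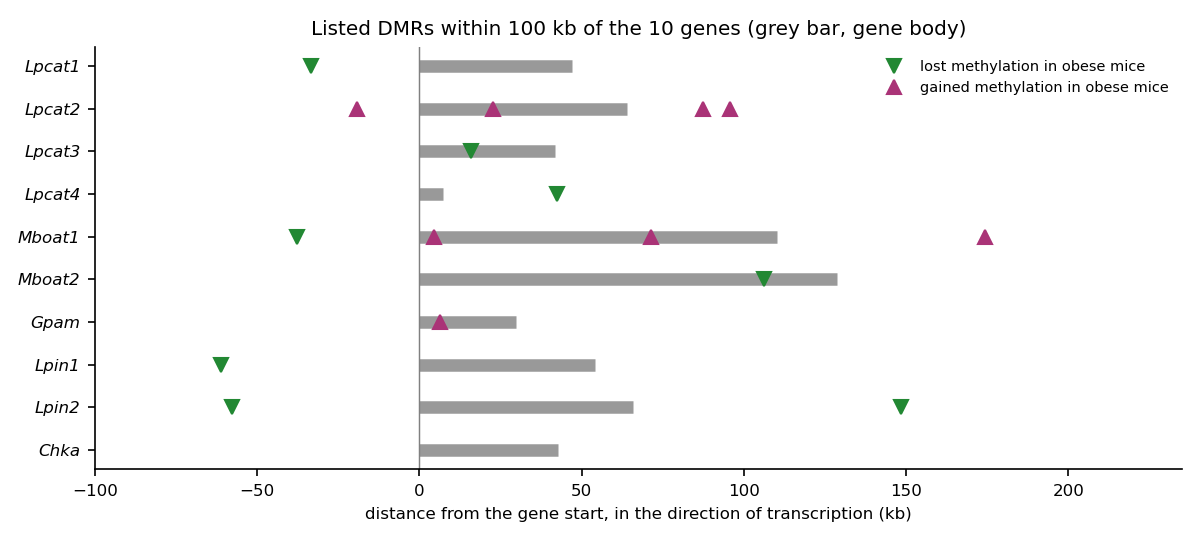
Position of the 16 listed DMRs within 100 kb of the 10 genes (x axis, kb from the gene start in the direction of transcription), with the gene body in grey and the direction of the methylation difference in obese mice as the marker. Of these, 6 lie on gene bodies, in Lpcat2, Lpcat3, Mboat1, Mboat2 and Gpam.

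Each of the 5 intronic DMRs printed above held 2 CpGs, and they were 6 to 109 bases long without their flanks. The DMR nearest to Lpcat1 lay 33.3 kb upstream and had lost methylation. The nearest to Lpcat4 lay 35.2 kb downstream and had also lost it.

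The promoter windows numbered 13 for the 10 genes. None of them overlapped a DMR, as was the case for all but 121 of 32851 promoters (0.368%). The median number of CpGs was 7 over all promoters and 30 over the 13 windows. The window of Lpin1 held 2 CpGs and lay 21196 bases from the Lpin1 start in the count table, which no window covered. The SREBP element TCACNCCAC, a sterol response motif, was searched on both strands and was in 0 of the 13 windows and in 1.24% of all promoters. The E-box CACGTG, which reads alike on both strands, was in 1 of 13, a window of Lpin2, and in 7.15% of all promoters. A match is a description of the letters only, and a window without one says nothing of the factor.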

How the data were processed

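RNA-seq was analysed for 15 libraries, 1 per mouse, in 3 groups of 5 taken from the sample titles. Per the labels and the study's methods, the authors mapped stranded mRNA reads to mm10 with TopHat2 2.0.4 and counted them per gene with HTSeq-count; they deposited raw counts. The strand mode and annotation release are not given in the sources used here, so overlapping and antisense genes are uncertain. The authors also deposited a DMR list from Bismark alignments and the Rao-Scott likelihood ratio test. Their 2 tables of fold changes and p-values, and the methylation of single amplicons (0 CpGs within 200 kb of a member), were not used.

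Counts were filtered with filterByExpr, scaled by TMM and fitted with edgeR 4.0.16 (R 4.3.3) in a single quasi-likelihood fit over all 15 libraries with group as the only term; the fit was tested on simulated data. Log2 CPM used a prior count of 2. Alternatives were DESeq2 1.42.0, other filters and scalings, a GC correction, the replicate number as a block, the compared groups alone, stricter cutoffs and leaving out single mice. DMR positions, 0-based in the list, were checked against the CGs of GRCm38.p6.

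The members and all gene lists were chosen with earlier results of these data known. Named genes are the 10 members and the 3 genes most correlated with Lpcat1, Lpcat4 and Gpam. Pathway genes are named where called in any comparison or, in a role without a call, where they had the most counts. Agpat6, Lypla2, Pld1, Slc44a1, Pgs1 and Chpt1 fall outside this rule and were added after their values were seen. The labels do not state housing or batches, so a cage or batch that went with diet could not be told apart from it. The p-values set the group differences against the spread between mice within groups.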

Additional observations from a re-analysis of the deposited data

Results flagged for a closer look

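Of 51 groups of 5 values examined for a sample far from the others (the 10 genes, the 3 called pathway genes, 3 marker sums and the Lpcat4 to Lpcat1 ratio), 5 held one whose gap to the nearest value was over 0.71 of the range of its group; chance gives about 1 in 20. They were Lpin1 in obese replicate 2 (15.8 CPM, the highest of its group), Ppap2a in control replicate 2 (17.7 CPM, the lowest) and in obese replicate 3 (28.8 CPM, the highest), the summed colonocyte markers in control replicate 4 (15783 CPM, the highest) and the summed immune markers in obese replicate 5 (52.0 CPM, the highest). Control replicate 4 also had the highest Lpcat4 and Lpin2 of the control mice. The call of Ppap2a was lost without obese replicate 3, and also without formerly obese replicate 5.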

How the results depend on the processing

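Lpcat1 and Gpam kept their direction and their call between obese and control mice in every refit at the same cutoffs. For the settings below the share of all genes called was not computed, so nothing is read from their counts of calls. With an adjusted p under 0.05 and no fold cutoff, 1 member was called in obese mice against control (Lpcat1) and 1 in formerly obese mice (Gpam), and 0 pathway genes were called in obese mice. With no filter on low counts, 0 pathway genes were called between obese and control mice and 0 between formerly obese and obese mice. Lpcat4 passed the cutoffs with DESeq2 in both comparisons with control mice (0.59 and 0.61), and in formerly obese mice also with no filter (0.61) and the GC trend removed (0.66). Lpcat1 lost its call in formerly obese mice with the GC trend removed (-0.29) and with the compared groups alone (-0.30). Chka between formerly obese and control mice turned to -0.0088 with upper-quartile scaling, -0.0013 with the replicate block and -0.024 with the GC trend removed. A DMR lay near 9 of 10 genes within 100 kb.

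The replicate numbers showed no pairing that held for all mice (5 of 15 pairs correlated over 0.1, from -0.23 to 0.33). For replicate 2, however, r was 0.20, 0.22 and 0.16 in the 3 pairs of groups, and this replicate had the lowest Lpcat4 of each group. Whether mice of the same number shared a batch was not tested. With the replicate number as a block, 3 members were called between obese and control mice and 4 between formerly obese and control mice, Lpcat4 being added (0.58 and 0.60).

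Without single mice, members called ranged from 2 to 3 (obese and control), 1 to 3 (formerly obese and control) and 0 to 1 (formerly obese and obese), and pathway genes called from 0 to 4, 1 to 2 and 0 to 2. The 3 calls fell to 1 without control replicate 2, control replicate 3 or formerly obese replicate 1. The pathway count between obese and control mice was 4 without control replicate 4, and 0 without control replicate 1 or 2 or obese replicate 1, 3 or 5. Log2 differences that changed sign ranged from -0.036 to 0.049 for Chka, -0.014 to 0.070 for Lpcat3 and -0.32 to 0.026 for Lpin1 (formerly obese and control). Between formerly obese and obese mice they ranged from -0.020 to 0.063 for Gpam, -0.020 to 0.092 for Lpcat2, -0.10 to 0.16 for Lpcat4, -0.054 to 0.20 for Lpin1 and -0.17 to 0.095 for Pla2g2a. That of Mboat2 between obese and control mice ranged from -0.26 to 0.073. Low counts limit Mboat2 (38 to 198 counts) and Pla2g2a (22 to 59). The causes of these changes were not tested.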
